A study of Mus musculus with 18 samples.

Results

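Sycp1, Capza1, Alpk1, S100a10, Olfml3, Veph1, Anxa9 and Qrfpr are 8 protein-coding genes of mouse chromosome 3 that were picked because their RNA differed widely between trichostatin A (TSA) and Vehicle samples of embryonic cortex. They are 8 of 707 chromosome 3 genes, and of 15000 genes in all, that had enough reads to be tested. Because that RNA difference chose them, their own RNA values are given as a description with no test. The 8 genes do not form a pathway, and no shared behaviour was assumed. They are not spread evenly along the chromosome. Sycp1, Olfml3 and Capza1 lie between 100 and 110 Mb, and S100a10 and Anxa9 between 90 and 100 Mb. Qrfpr, Veph1 and Alpk1 lie further off, each in a 10 Mb window of its own.

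The TSA group held 4 RNA samples and 4 chromatin samples, and the Vehicle group held the same numbers. All were whole embryonic cortex at E15.5 with the genotype BAF155 cKO, a conditional knockout of a core subunit of the BAF chromatin remodelling complex, so both groups carry that deletion and no sample with the intact gene was analysed here. TSA inhibits histone deacetylases, the enzymes that remove acetyl groups from histones. By its title, the study asks how H3 acetylation bears on basal progenitors and Trnp1. The Cre driver, the strain, the litters, the dose, and the number of animals per sample are not given in the labels. Whether replicates came from separate animals is also not stated, and p-values then cover the spread between the samples at hand, which may be technical. With no strain or litter given, an inherited sequence difference between the groups and the treatment cannot be told apart. In bulk tissue, fewer cells of a type and less RNA per cell cannot be told apart either.

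The genes act in unrelated places. Sycp1 encodes the transverse filament of the synaptonemal complex, which holds paired chromosomes together in meiosis and is normally a germ cell structure. Capza1 encodes an alpha subunit of the capping protein that closes the fast-growing ends of actin filaments, S100a10 a small protein that binds annexin A2 at membranes, and Anxa9 an annexin. Alpk1 encodes a kinase that senses bacterial sugars and signals through Tifa to NF-kappaB, Veph1 a membrane-binding protein first named for the ventricular zone, Olfml3 a secreted olfactomedin-domain protein, and Qrfpr a receptor for the neuropeptide QRFP. Histone H3 acetylated at lysine 9 (H3K9ac) is a mark of active promoters and enhancers.

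The promoter windows of 3 genes are shown. They are a pair with the same number of CpG pairs whose starts carried an H3K9ac peak in every library or in none, and 1 with fewer CpG pairs. Sycp1 and Capza1 each hold 21 CpG pairs in 300 bases, Alpk1 holds 5, and the median of 32851 mouse promoters in the same table is 7. Sequences are RefSeq, build GRCm38.p6, 5′ to 3′ on the minus strand on which each gene is read, with CpG pairs in capitals. The windows are chr3:102936051-102936350 for Sycp1, chr3:104864456-104864755 for Capza1 and chr3:127780478-127780777 for Alpk1.
Sycp1: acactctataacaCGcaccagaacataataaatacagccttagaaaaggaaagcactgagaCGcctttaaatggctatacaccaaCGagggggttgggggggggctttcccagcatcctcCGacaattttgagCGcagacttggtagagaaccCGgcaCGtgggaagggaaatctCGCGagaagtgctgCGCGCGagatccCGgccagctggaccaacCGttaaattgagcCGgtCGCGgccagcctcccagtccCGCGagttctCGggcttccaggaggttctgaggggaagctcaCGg
Capza1: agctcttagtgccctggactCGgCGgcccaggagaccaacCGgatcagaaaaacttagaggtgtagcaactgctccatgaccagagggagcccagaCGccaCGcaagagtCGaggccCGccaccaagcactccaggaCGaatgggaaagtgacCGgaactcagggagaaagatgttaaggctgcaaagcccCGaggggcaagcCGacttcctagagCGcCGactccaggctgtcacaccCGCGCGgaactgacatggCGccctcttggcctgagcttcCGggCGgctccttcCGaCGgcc
Alpk1: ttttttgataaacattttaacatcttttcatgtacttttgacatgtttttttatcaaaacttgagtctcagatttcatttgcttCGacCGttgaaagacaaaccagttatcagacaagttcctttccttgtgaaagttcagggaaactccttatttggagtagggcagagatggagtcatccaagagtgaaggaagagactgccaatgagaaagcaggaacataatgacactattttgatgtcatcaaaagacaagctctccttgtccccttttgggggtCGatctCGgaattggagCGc
The Capza1 window overlaps that of St7l, on the other strand, by 100 bases, and the starts of these genes are 1 base apart. Promoters of 7 of the 8 genes were matched, and S100a10 is named only. Searched on both strands, CACGTG and GCGGGA each occurred in the Sycp1 window without overlapping, and neither occurred in those of Capza1 and Alpk1. CACGTG was in 7.15% and GCGGGA in 19.98% of all promoters in the table, so such matches are common. They are matches of letters and not sites of binding.

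RNA totals were 6733415 to 20400727 counts per TSA library and 12200426 to 15600340 per Vehicle library. Levels are given in CPM, which puts libraries of unequal size on the same scale. Over all 15000 tested genes 33.0% were called (edgeR's quasi-likelihood test, adjusted p under 0.05), 15.4% as rises and 17.6% as falls, and the median log2 change was −0.01. Xist, which is expressed from the inactive X chromosome, was at 0.305, 1.47, 0.494 and 2327 CPM in TSA 1 to 4, against 1768 to 3118 CPM in Vehicle. Mitochondrial genes took 1.48 to 1.71% of counts in TSA, against 1.60 to 3.36% in Vehicle. The labels mention neither difference, and their part in the changes below was not tested.

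Of the 8 genes, 5 were higher in TSA (Sycp1, Alpk1, Veph1, Anxa9 and Qrfpr) and 3 were lower (Capza1, S100a10 and Olfml3). In all 8 the TSA and Vehicle libraries did not overlap, which was also so for 32.3% of all tested genes. That is how they were chosen, so nothing is read from this count. TSA 4, the TSA library with high Xist, lay inside the range of TSA 1 to 3 for 5 of the 8 genes. For Capza1, Olfml3 and Sycp1 it lay just outside that range, and always apart from Vehicle.

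**Figure D1:**
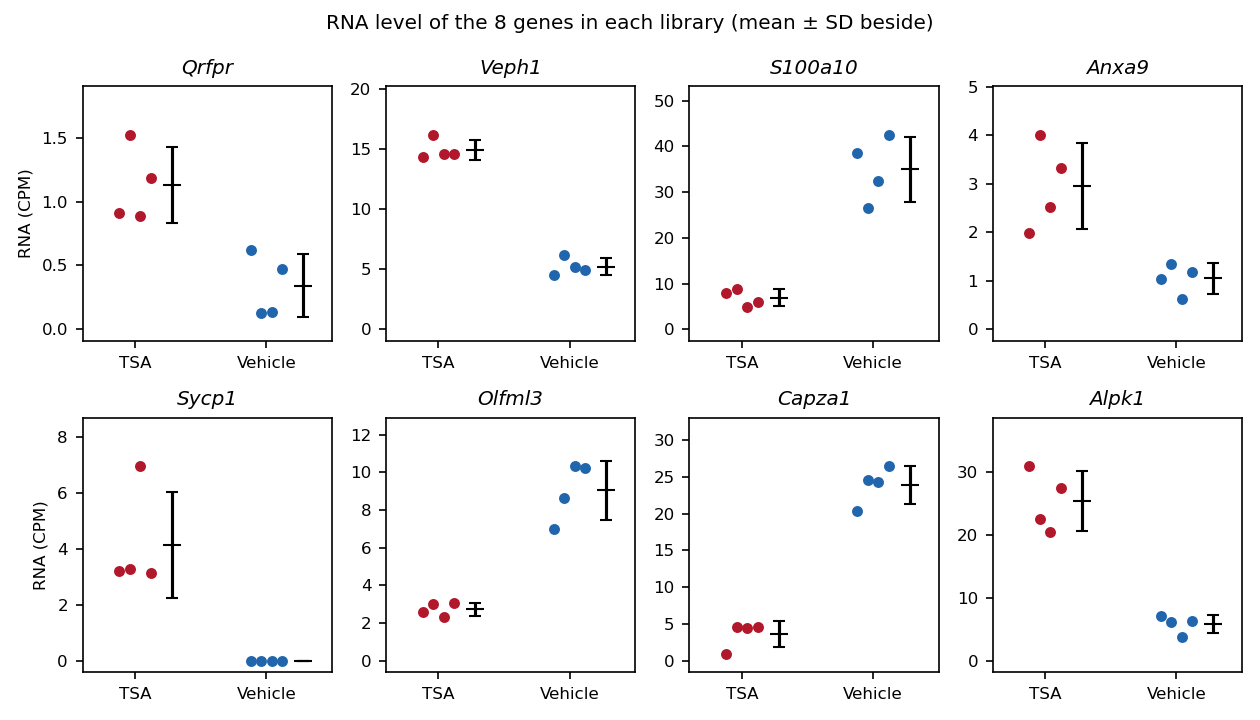
RNA level in CPM (vertical axis, linear, its own scale per gene) of the 8 genes in chromosome order, with 1 point per library, TSA on the left and Vehicle on the right, and the mean ± SD (n = 4) beside the points. TSA and Vehicle points do not overlap in any panel, and Sycp1 sits at 0 in all 4 Vehicle libraries.

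Sycp1 (ENSMUSG00000027855, chromosome 3, 102818499 to 102936100) was measurable in every TSA library and in no Vehicle library. It had 21, 58, 141 and 50 counts in TSA 1 to 4, against 0 counts in each of the 4 Vehicle libraries. In CPM these are 3.20, 3.28, 6.96 and 3.13 in TSA, a mean of 4.14 ± 1.88 (SD, n = 4). A floor of 3 counts over the whole Vehicle group is 0.0524 CPM, so Sycp1 was at least 79.0-fold higher in TSA. TSA 3 held more than the other TSA libraries, which lay close together. The related pseudogene Sycp1-ps1 on chromosome 7 had 4 counts over all 8 libraries, 2 each in TSA 2 and TSA 3, so reads assigned to Sycp1 were not matched by reads there.

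Among genes with 0 counts in every library of a group and at least 5 in every library of the other were also Gm12666 on chromosome 4, at 0 in Vehicle, and Gm36640 on chromosome 6, at 0 in TSA. Both were named after their values were seen. Of 7 other tested genes of the synaptonemal complex and meiotic chromosome axis 0 rose and 1 fell, with a median log2 change of −0.22, where 15.4% and 17.6% of all tested genes rose and fell. The gene that fell was Syce2, of the central element, at 18.7 ± 0.96 CPM in TSA and 26.00 ± 2.45 CPM in Vehicle (SD, n = 4 each; log2 change −0.47 ± 0.11 SE, edgeR adjusted p = 0.00419). Syce3, Majin, Terb2 and Stra8 had 0 counts in all 8 libraries. Of 9 germ cell markers 3 could be tested and 0 rose or fell, and their summed level was 5.88 to 7.11 CPM in TSA against 6.82 to 9.01 CPM in Vehicle.

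Capza1 (ENSMUSG00000070372, chromosome 3, 104822781 to 104864505) had, with S100a10, one of the deepest falls of the 8. It had 0.91, 4.52, 4.44 and 4.56 CPM in TSA 1 to 4, against 20.35, 24.5, 24.3 and 26.4 CPM in Vehicle 1 to 4. The means were 3.61 ± 1.80 CPM in TSA and 23.9 ± 2.55 CPM in Vehicle (SD, n = 4 each), a log2 change of −2.61 ± 0.25 (SE). TSA 1, the shallowest library, was the lowest, and the other 3 TSA libraries were nearly equal. Leaving out each library in turn kept the log2 change between −2.69 and −2.40, the smallest size being without TSA 1.

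The partners of Capza1 had log2 changes of smaller size. Capza2, which encodes the other somatic alpha subunit, was at 173.7 ± 7.55 CPM in TSA and 252 ± 4.22 CPM in Vehicle (log2 change −0.54 ± 0.08, adjusted p = 0.000207). Its relative fall was thus in the same direction as that of Capza1 and smaller in size. Capza3, the germ cell form, had 0 counts in all 8 libraries. Capzb, the beta subunit with which the alpha subunits pair, was at 165.7 ± 3.96 CPM in TSA and 174.0 ± 19.8 CPM in Vehicle and was not called (log2 change −0.07 ± 0.09, adjusted p = 0.597). The list held 24 other tested genes, of which 8 fell and 2 rose, with a median of −0.06. Among the 15 for capping and its regulation 2 fell, Capza2 and Mtpn, and 2 rose, with a median of 0.04. The other 9 encode subunits of the Arp2/3 complex, of which 6 fell and 0 rose, among them Arpc5 (−0.70 ± 0.09, adjusted p = 8.57e-05), Arpc3 (−0.59 ± 0.09, adjusted p = 0.000233) and Arpc5l (−0.62 ± 0.11, adjusted p = 0.000724), on the log2 scale. This complex starts actin branches. The genes that rose were Sh3kbp1 and Carmil3, an adaptor and a capping protein regulator.

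S100a10 (ENSMUSG00000041959, chromosome 3, 93555117 to 93564645) had 7.93, 8.87, 4.89 and 6.06 CPM in TSA 1 to 4, against 38.5, 26.4, 32.4 and 42.6 CPM in Vehicle 1 to 4. The highest TSA library was well below the lowest Vehicle library. The means were 6.94 ± 1.79 CPM in TSA and 35.0 ± 7.07 CPM in Vehicle (SD, n = 4 each), a log2 change of −2.35 ± 0.19 (SE). Many S100 genes encode small calcium-binding proteins, and several S100 genes are clustered on chromosome 3. Of 5 other tested S100 genes 2 fell and 0 rose, with a median of −0.79 against −0.01 over all tested genes. The list also held S100pbp, which encodes a binding partner and not an S100 protein, at a log2 change of 0.03 that was not called. S100a16 was at 6.86 ± 1.24 CPM in TSA and 13.05 ± 2.44 CPM in Vehicle (log2 change −0.95 ± 0.18, adjusted p = 0.00109). S100a13 was at 1.32 ± 0.45 CPM in TSA and 2.38 ± 0.39 CPM in Vehicle (log2 change −0.79 ± 0.29, adjusted p = 0.0492). S100a11, the nearest tested coding gene on one side of S100a10, did not pass (log2 change −0.95 ± 0.41, adjusted p = 0.0904).

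Annexins are membrane-binding proteins, some of them partners of S100 proteins. Anxa9 (ENSMUSG00000015702, chromosome 3, 95296093 to 95315180) had 1.98, 4.01, 2.52 and 3.31 CPM in TSA 1 to 4, against 1.03, 1.35, 0.62 and 1.19 CPM in Vehicle 1 to 4. The lowest TSA library exceeded the highest Vehicle library, by a narrower margin than for the genes above. The means were 2.96 ± 0.89 CPM in TSA and 1.05 ± 0.31 CPM in Vehicle (SD, n = 4 each), a log2 change of 1.52 ± 0.31 (SE). Of 6 other tested annexins 0 were called in either direction by edgeR, with a median of −0.18. Anxa2, whose protein binds that of S100a10, had 14.1 to 22.5 CPM in TSA, against 15.7 to 24.3 CPM in Vehicle, so these groups overlapped.

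Alpk1 (ENSMUSG00000028028, chromosome 3, 127666718 to 127780547) had 30.9, 22.5, 20.5 and 27.5 CPM in TSA 1 to 4, against 7.08, 6.12, 3.79 and 6.25 CPM in Vehicle 1 to 4. Every TSA library stood far above every Vehicle library. The means were 25.4 ± 4.74 CPM in TSA and 5.81 ± 1.41 CPM in Vehicle (SD, n = 4 each), a log2 change of 2.11 ± 0.19 (SE). Tifa, the adaptor that this kinase phosphorylates, lies 8328 bases away and had 9.05 ± 1.03 CPM in TSA and 3.75 ± 0.52 CPM in Vehicle (log2 change 1.27 ± 0.17, adjusted p = 0.000128). On the other side, 31082 bases away, the proneural factor Neurog2 had 99.7 ± 13.8 CPM in TSA and 29.2 ± 8.51 CPM in Vehicle (log2 change 1.76 ± 0.17, adjusted p = 2.61e-05). Alpk1 was the only one of the 8 genes whose nearest tested coding neighbours were both called in its own direction.

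Of 16 other tested genes for alpha-kinases and the pathway of Alpk1 and Tifa 3 rose (18.8%, against 15.4% of all tested genes) and 0 fell, with a median of 0.12. Besides Tifa these were Eef2k, another alpha-kinase, at 88.6 ± 9.58 CPM in TSA and 58.4 ± 3.96 CPM in Vehicle (log2 change 0.60 ± 0.10, adjusted p = 0.000375), and Rela, a subunit of NF-kappaB (0.32 ± 0.09, adjusted p = 0.0159).

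Veph1 (ENSMUSG00000027831, chromosome 3, 66053558 to 66296974) had 14.3, 16.2, 14.6 and 14.6 CPM in TSA 1 to 4, against 4.54, 6.19, 5.17 and 4.91 CPM in Vehicle 1 to 4. Both groups were tight. The means were 14.9 ± 0.86 CPM in TSA and 5.20 ± 0.71 CPM in Vehicle (SD, n = 4 each), a log2 change of 1.52 ± 0.14 (SE). In human cells the Veph1 protein has been found to bind the type I receptor for TGF-beta and to dampen its signal. Of 22 other tested genes for TGF-beta and activin ligands, receptors, Smads and FoxO factors 7 rose and 1 fell, with a median of 0.16. Smad6, an inhibitory Smad, was at 2.03 ± 0.56 CPM in TSA and 0.679 ± 0.16 CPM in Vehicle (log2 change 1.61 ± 0.32, adjusted p = 0.00147). Foxo6 (1.09 ± 0.14, adjusted p = 8.11e-05) and Smad3 (0.67 ± 0.12, adjusted p = 0.000854) also rose, and the ligand gene Tgfb3 fell (−0.42 ± 0.12, adjusted p = 0.0160). Ptx3, which encodes a secreted pentraxin and lies inside the span of Veph1, was at 26.00 ± 1.97 CPM in TSA and 16.1 ± 3.31 CPM in Vehicle (log2 change 0.69 ± 0.14, adjusted p = 0.00197). The kit does not mark strand, so reads shared by overlapping genes such as these cannot be told apart.

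Olfml3 (ENSMUSG00000027848, chromosome 3, 103735394 to 103738001) had 2.59, 2.99, 2.32 and 3.06 CPM in TSA 1 to 4, against 7.01, 8.64, 10.3 and 10.2 CPM in Vehicle 1 to 4. All TSA libraries were low and close together, and all Vehicle libraries lay above them. The means were 2.74 ± 0.35 CPM in TSA and 9.05 ± 1.56 CPM in Vehicle (SD, n = 4 each), a log2 change of −1.71 ± 0.19 (SE). Of 9 other tested olfactomedin genes 2 rose and 1 fell, with a median of 0.16. Those that rose were the latrophilin genes Adgrl1 (0.59 ± 0.09, adjusted p = 0.000374) and Adgrl2 (0.62 ± 0.10, adjusted p = 0.000457), which encode adhesion receptors with an olfactomedin domain. The one that fell was Olfml2b (−0.43 ± 0.13, adjusted p = 0.0209).

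Olfml3 is also known as a gene of microglia. Of 12 microglia and macrophage markers 5 fell, 0 rose and 7 were not called, with a median log2 change of −0.45, none of them was at 0, and their summed level was 38.3 to 54.0 CPM in TSA against 50.6 to 69.4 CPM in Vehicle. The marker Aif1, which fell, had 0.152 to 0.813 CPM in TSA, against 1.51 to 2.06 CPM in Vehicle, and Cx3cr1, which was not called, had 9.85 ± 2.77 CPM in TSA and 8.77 ± 2.88 CPM in Vehicle. The part of microglia in the fall of Olfml3 was not tested.

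Qrfpr (ENSMUSG00000058400, chromosome 3, 36179426 to 36222275) was the faintest of the 8 by counts. It had 6, 27, 18 and 19 counts in TSA 1 to 4, against 9, 2, 2 and 6 counts in Vehicle 1 to 4. In CPM these were 0.91, 1.52, 0.89 and 1.19 CPM in TSA, against 0.62, 0.13, 0.14 and 0.47 CPM in Vehicle. TSA 1 had fewer raw counts than Vehicle 1 and a higher CPM, since its library was the smaller one. The means were 1.13 ± 0.30 CPM in TSA and 0.34 ± 0.25 CPM in Vehicle (SD, n = 4 each), a log2 change of 1.76 ± 0.47 (SE). Without Vehicle 1 and 4, the Vehicle libraries richest in mitochondrial counts, it was 3.03. Of 3 other tested genes for RFamide and orexin peptides and receptors 0 were called by edgeR, with a median of 0.14, and Npvf, Prlh and Hcrt had 0 counts in all 8 libraries.

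**Figure D2:**
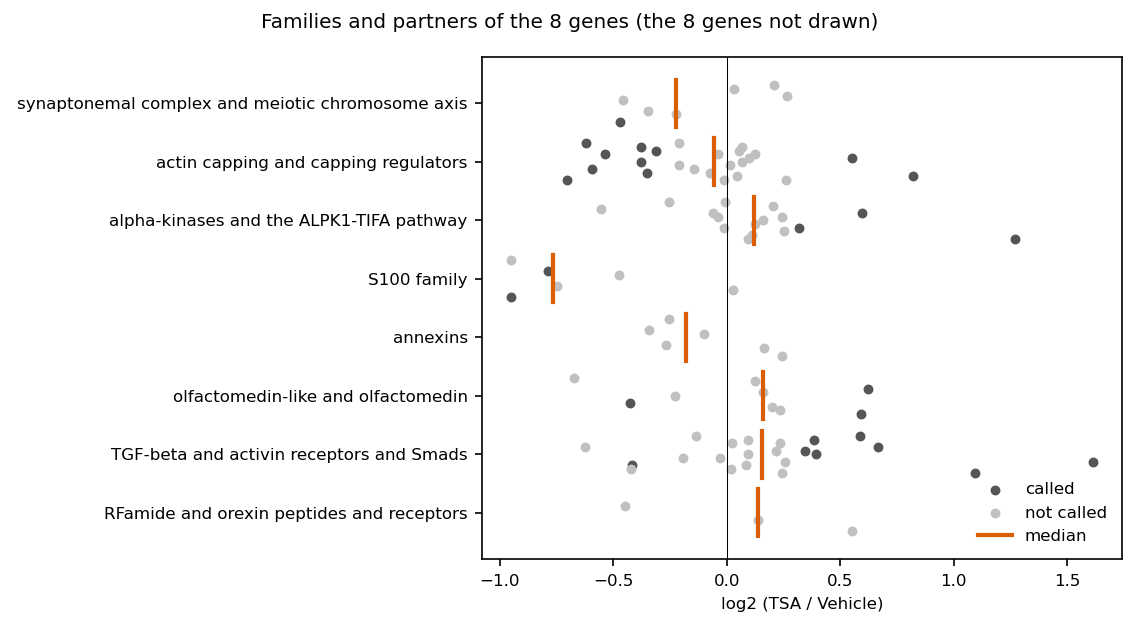
Log2 RNA change of TSA over Vehicle (horizontal axis) for the other tested genes of the 8 family and partner lists, 1 point per gene, dark where called at an adjusted p under 0.05, with the list's median as a bar and vertical scatter added for legibility. The capping list includes Arp2/3 subunits and the S100 list S100pbp. The S100 list has the lowest median, −0.77, and Smad6, at 1.61, is the furthest point to the right.

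Markers of other cells in the cortex were measured beside these changes. Of 6 ganglionic eminence markers 5 fell and 1 rose, with summed levels of 425 to 606 CPM in TSA against 847 to 977 CPM in Vehicle. Of 6 cortical neuron markers 5 rose and 0 fell (3830 to 4351 CPM in TSA against 2802 to 3748 CPM in Vehicle), and of 6 progenitor markers 3 rose and 1 fell (1342 to 1523 CPM in TSA against 942 to 1404 CPM in Vehicle). Of 8 endothelial markers 2 fell and 0 rose, of 6 pericyte markers 3 fell and 1 rose, of 6 tested markers of meninges and fibroblasts 2 fell and 0 rose, and of 8 erythroid markers 2 fell and 0 rose. Of 4 tested choroid plexus markers 0 were called. Summed levels were 127 to 163 CPM in TSA against 122 to 200.2 CPM in Vehicle for endothelium, and 129.6 to 185.9 CPM in TSA against 178 to 255 CPM in Vehicle for pericytes. They were 28.6 to 33.2 CPM in TSA against 41.0 to 51.8 CPM in Vehicle for meninges, 143 to 179.7 CPM in TSA against 199 to 472 CPM in Vehicle for erythroid cells, and 6.94 to 17.3 CPM in TSA against 7.37 to 16.4 CPM in Vehicle for choroid plexus. Of the cell type markers Stra8 alone, of germ cells, had 0 counts in all 8 libraries. The part of these cells in the changes of the 8 genes was not tested.

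No difference in H3K9ac near the 8 genes passed its test. Peaks had been called in each library separately, and the measure here is the length that they cover from 20 kb before to 20 kb after each gene. Lists held 46714, 53285, 32248 and 61217 peaks in TSA 1 to 4, against 41987, 41331, 43645 and 22668 in Vehicle 1 to 4, so cover also moves with how much was called in a library. In two-sided exact permutation tests over 4 lists against 4, with p adjusted over the 8 genes, 0 of the 8 passed, and 0 had an unadjusted p under 0.05, where the smallest p possible is 0.0286. The adjusted p of a single gene could not fall below 0.229, and a pass needed at least 5 genes at the smallest p, so missing the adjusted threshold says little.

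Sycp1, the gene that was silent in Vehicle, had no peak within 20 kb in any of the 8 lists, and so none within 1 kb of its start. Among 11204 tested genes with an annotated start, 1124 had no peak within 1 kb of it in any list, and 7172, or 64.0%, had one in all 8. Among the 126 other genes called with a log2 change above 1 these shares were 18.3% and 35.7%, and among the 180 below −1 they were 18.3% and 42.8%. Both groups of strongly changed genes thus had fewer starts with a peak in all 8 lists than tested genes at large.

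Capza1 was the opposite case. Its start lay within 1 kb of a peak in 4 of 4 TSA lists and 4 of 4 Vehicle lists, although its RNA was lower in every TSA library. Cover near Capza1 was 3.34, 3.23, 2.57 and 3.50 kb in TSA 1 to 4, against 3.25, 2.38, 2.93 and 2.14 kb in Vehicle 1 to 4. The groups overlapped, with means of 3.16 ± 0.41 kb in TSA and 2.67 ± 0.51 kb in Vehicle (SD, n = 4 each, exact p = 0.20, adjusted p = 0.533). By the authors' fold enrichment the peak nearest the start ranked above 94.5 to 99.3% of the peaks of its own list in 7 of the 8 lists, and above 59.3% in Vehicle 4, the list with the fewest peaks. That peak cannot be assigned to Capza1 alone, since the start of St7l is 1 base away. St7l was at 27.3 ± 1.37 CPM in TSA and 37.7 ± 3.01 CPM in Vehicle (log2 change −0.46 ± 0.10, edgeR adjusted p = 0.00222).

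Alpk1 had the widest spread of cover, at 1.87, 4.10, 1.21 and 7.31 kb in TSA 1 to 4, against 1.47, 1.48, 1.66 and 0.53 kb in Vehicle 1 to 4. TSA 4 and TSA 2 were high and TSA 3 was within the Vehicle range. The means were 3.62 ± 2.75 kb in TSA and 1.28 ± 0.51 kb in Vehicle (SD, n = 4 each, exact p = 0.171, adjusted p = 0.533). Of the 17 merged peak regions near Alpk1, 12 were in more TSA than Vehicle lists and 2 in more Vehicle than TSA lists. Of all 104737 merged regions, 55.6% were in more TSA lists and 23.3% in more Vehicle lists. Regions inside the gene at chr3:127748464-127749905 and chr3:127750217-127750648 (mm10) were each present in 4 TSA lists and 2 Vehicle lists. The start of Alpk1 itself had a peak within 1 kb in 2 TSA and 2 Vehicle lists. The 20 kb window also takes in Tifa. Regions at chr3:127789390-127790301 (3 TSA and 4 Vehicle lists) and chr3:127790410-127791061 (4 TSA and 3 Vehicle lists) lie inside Tifa. Cover in this window thus cannot be assigned to Alpk1 alone. Beyond the 20 kb window, a region at chr3:127627493-127628740, which is 37978 bases from Alpk1 and 3993 from Neurog2, was present in 4 TSA lists and 0 Vehicle lists.

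Cover near Veph1 was 1.19, 1.14, 0.49 and 1.61 kb in TSA 1 to 4, against 0.68, 0.76, 0.65 and 0.19 kb in Vehicle 1 to 4. TSA 3 was below 3 of the Vehicle lists, and the means of 1.11 ± 0.46 kb in TSA and 0.568 ± 0.26 kb in Vehicle did not pass (SD, n = 4 each, exact p = 0.114, adjusted p = 0.533). The region near Veph1 that was present in all 8 lists, chr3:66219732-66220855, lies 76119 bases inside the gene from its start, by Ptx3. At the start of Veph1 a peak was listed in 1 TSA list and 0 Vehicle lists.

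For the remaining genes the mean cover of the groups differed by less than the SD between lists. Anxa9, which shares its neighbourhood with densely packed genes, had 3.89 ± 1.20 kb in TSA and 3.59 ± 1.22 kb in Vehicle (SD, n = 4 each, exact p = 0.714, adjusted p = 1), and a peak at its start in 4 TSA and 4 Vehicle lists. That peak cannot be assigned to Anxa9 alone, since the start of Cers2 is 409 bases away, and no merged region lay within 1 kb of a second RefSeq promoter of Anxa9, chr3:95307143-95307442. Olfml3 had 0.680 ± 0.46 kb in TSA and 0.628 ± 0.64 kb in Vehicle (exact p = 0.914, n = 4 each, adjusted p = 1), with a start peak in 4 TSA and 3 Vehicle lists. S100a10 had 0.237 ± 0.33 kb in TSA and 0.258 ± 0.20 kb in Vehicle (exact p = 1, n = 4 each), with a peak at an end of the gene in 2 TSA and 3 Vehicle lists. Qrfpr had 1 peak in TSA 4 and 1 in Vehicle 2, and none in the other 6 lists. The number of lists with a peak at the start differed for Veph1, Olfml3 and S100a10, and 0 of the 8 genes passed (Fisher's exact test on lists, p = 1 for each). The smallest p of that test is 0.0286, for a peak in all 4 lists of a group and 0 of the other. Missing its threshold thus says little.

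**Figure D3:**
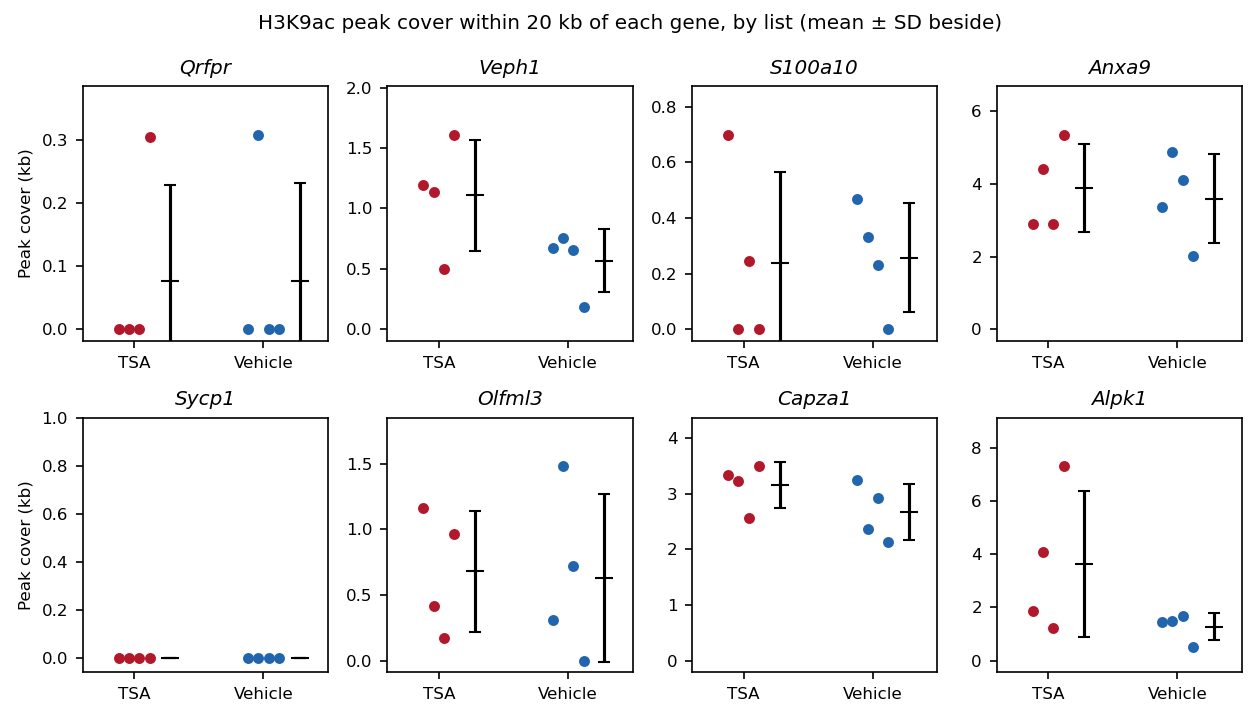
Length covered by H3K9ac peaks within 20 kb of each gene (vertical axis, kb, its own scale per gene), 1 point per peak list, TSA on the left and Vehicle on the right, with the mean ± SD (n = 4) beside the points, cut at the panel edge where the SD runs below 0. The groups overlap in every panel, Sycp1 is at 0 in all 8 lists, and the TSA lists near Alpk1 reach 7.31 kb.

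The surroundings of the genes were examined because neighbours were not used to choose them. Of the 16 nearest tested coding neighbours, 1 on each side of each gene, 5 were called, 3 as rises and 2 as falls, and 33.0% of all tested genes were called. Those calls were Neurog2 and Tifa beside Alpk1, St7l beside Capza1, Hipk1 beside Olfml3 and Them4 beside S100a10. Hipk1, a nuclear kinase gene 1814 bases from Olfml3, was at 171.6 ± 13.5 CPM in TSA and 129.6 ± 15.4 CPM in Vehicle (log2 change 0.41 ± 0.10, adjusted p = 0.00605), opposite in sign to Olfml3. Beside Sycp1, neither Tspan2 (−0.31 ± 0.15, adjusted p = 0.141) nor Sike1 (−0.02 ± 0.08, adjusted p = 0.884) was called. Beside Qrfpr and Anxa9 no nearest neighbour was called either.

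Within 1 Mb of any of the 8 genes, 42 of 122 other tested genes were called, which is 34.4%, against 35.7% of the 577 genes on the rest of chromosome 3. By gene the counts were 7 of 17 near Sycp1, 8 of 16 near Capza1, 3 of 8 near Alpk1, 4 of 11 near S100a10, 9 of 18 near Olfml3, 3 of 7 near Veph1, 21 of 61 near Anxa9 and 1 of 12 near Qrfpr. Some neighbours are counted for more than 1 gene. The calls ran in both directions, with 19 rises and 23 falls. Called changes above 1 in log2 size were 7 of the 122 (5.74%) and 24 of the 577 (4.16%). The share over all tested genes was 2.98%, and these shares were not tested. The 3 called genes near Alpk1, Neurog2, Tifa and the ankyrin gene Ank2 (0.48 ± 0.09, adjusted p = 0.00151), all rose with it. Near Anxa9 the largest were rises of Gm4349 and of the noncoding 4930481B07Rik (2.03 ± 0.29, adjusted p = 0.000190), and a fall of BC028528 (−1.16 ± 0.39, adjusted p = 0.0325), which were named after their values were seen. Under the naming rule they included Bcl2l15 near Olfml3 (1.44 ± 0.33, adjusted p = 0.00441), Rap1a near Capza1 (−0.84 ± 0.13, adjusted p = 0.000307) and Ctss near Anxa9 (−0.97 ± 0.18, adjusted p = 0.00107), on the log2 scale. Ctss encodes a lysosomal protease abundant in microglia. Near the 8 genes, within 1 Mb, 8 H3K9ac regions were present in at least 3 TSA lists and 0 Vehicle lists and 2 the other way round. Of 4043 merged regions on chromosome 3 these were 38 (0.940%) and 14 (0.346%), against 1.30% and 0.187% of all 104737 regions. The total of merged regions within 1 Mb is not given here, so the 8 and 2 have no share and nothing is read from them.

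**Figure D4:**
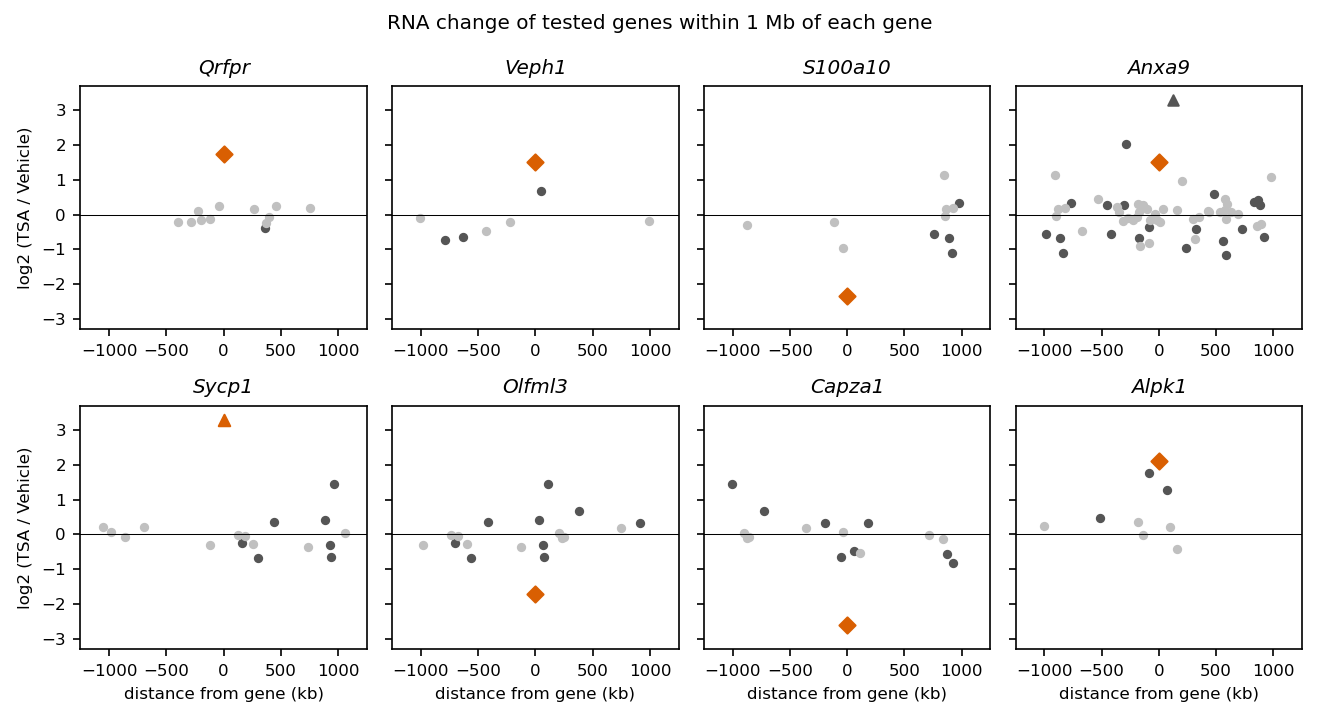
Log2 RNA change of TSA over Vehicle (vertical axis) against distance in kb between gene centres (horizontal axis), for tested genes within 1 Mb of each of the 8 genes. Dark points are called and light points are not, the coloured diamond is the gene itself, and triangles at the top edge stand for Sycp1 and Gm4349, which lie beyond the axis. Neighbours of Alpk1 nearest to it rise with it, while the nearest tested coding neighbours of Sycp1 and Qrfpr are not called.

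Chromosome 3 as a whole, with the 8 genes left out, had 35.5% of its tested genes called, and 5 of the 18 other autosomes had as high a share or higher, the others ranging from 29.0 to 39.6%. Changes above 1 in log2 size were called for 4.43% of its genes, against 1.48 to 4.25% on the other autosomes, so none of those 18 reached the value of chromosome 3. Over all tested genes that share was 2.98%. Changes above 2 were called for 6 of its genes, against 0 to 4 on the other autosomes. These are descriptions, since chromosomes differ in which genes they hold.

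**Figure D5:**
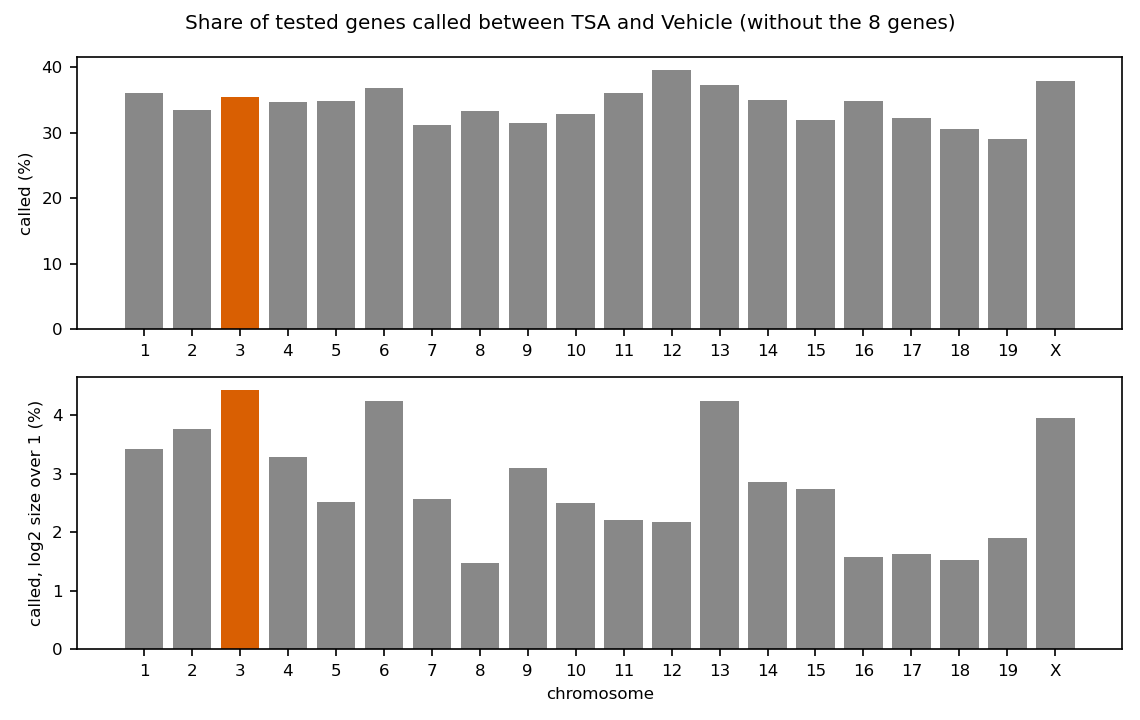
Share of tested genes called between TSA and Vehicle on each chromosome (upper panel, percent) and share called with a log2 change above 1 in size (lower panel, percent), with the 8 genes left out and chromosome 3 in colour. Chromosome 3 stands among the others in the upper panel at 35.5% and is the tallest bar in the lower panel at 4.43%.

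The rule gave no size limit, and genes of chromosome 3 that were not picked changed as much. Wls, needed for Wnt secretion, was at 19.6 ± 5.40 CPM in TSA and 107 ± 10.8 CPM in Vehicle (log2 change −2.46 ± 0.17). Dapp1, an adaptor of immune cell signalling, was at 7.15 ± 1.03 CPM in TSA and 1.35 ± 0.40 CPM in Vehicle (log2 change 2.38 ± 0.24). Rpl34, a ribosomal protein gene whose many copies make its counts uncertain, was at 46.5 ± 2.55 CPM in TSA and 166.6 ± 39.1 CPM in Vehicle (log2 change −1.84 ± 0.14). Lhx8, a transcription factor gene, had a log2 change of 2.27 ± 0.62. The smallest changes among the 8 genes themselves were those of Veph1 and Anxa9, both 1.52.

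Profiles over the 8 libraries were also compared. The genes most like each of the 8 were taken by the smallest root mean square distance of their log2 CPM, with every gene first centred on its own mean. The closest match of all was Sema5a for Veph1, at 0.089, followed for that gene by Heg1 at 0.12. Alpk1 was closest to Dapp1 (0.15) and Olfml3 to Depdc7 (0.13). Capza1 was closest to Cdhr1 (0.36), S100a10 to Rpl34 (0.33), Anxa9 to Gm29260 (0.29), Qrfpr to 2600014E21Rik (0.32) and Sycp1 to Gm4349 (0.87). Of the 16 closest genes, 2 per gene, 3 lie on chromosome 3, namely Gm4349, Dapp1 and Rpl34.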

How the data were processed

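RNA and H3K9ac chromatin were profiled in cortex samples, 4 TSA and 4 Vehicle for each assay. The authors deposited raw read counts per Ensembl gene, with no normalization, and 1 H3K9ac peak list per library in mm10, called with MACS2 2.1.0.20140616 against 1 common input, per the file headers. Those lists give the pileup signal, the fold enrichment (a ratio) and −log10 values of p-values and q-values, as the authors deposited them. Aligner, counter and annotation: not given in the sources used here. Per the labels' protocols, the RNA kit keeps no strand. The input samples were not analysed here.

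Counts were tested in edgeR 4.0.16 (R 4.3.3) with filterByExpr, TMM scaling and the robust quasi-likelihood test, with Benjamini-Hochberg adjustment over 15000 genes and a threshold of 0.05. An SE is the size of the log2 change divided by the square root of F. CPM values use TMM-scaled totals. All other adjusted p-values of genes come from this fit. Intervals and floors of 3 counts cover counting error only. Gene positions are GRCm38.p6, from a RefSeq table that placed 35223 of 47729 genes. The orientation of promoters was checked on the overlap of Capza1 and St7l. Peak cover was compared with exact permutation tests and Fisher's exact test in scipy 1.17.1. Steps were tested on simulated data. Alternatives used DESeq2 1.42.0, limma 3.58.1, RLE factors, no filter, covariates, other windows and stricter peaks.

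Genes named besides the 8 were their nearest tested coding neighbours, up to 3 called genes within 1 Mb, the largest called changes of chromosome 3, up to 4 called genes per list and the 2 closest profiles. The 8 genes, the 8 family lists and the 10 marker lists were chosen with earlier results of these data known. Same-numbered TSA and Vehicle libraries had deviations correlated by 0.070 to 0.111, so the numbers were not taken to pair them. No 2 replicates agreed within sampling noise (chi-square per degree of freedom 2.98 to 32.8). Some genes that the naming rule takes are left out of the text.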

Additional observations from a re-analysis of the deposited data

Results flagged for a closer look

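Among 32 groups of 4 values for the 8 genes (RNA level and H3K9ac cover in each group), 5 held a library far from its group by Dixon's test, and chance alone picks out about 1 group in 20. TSA 3 had 6.96 CPM of Sycp1, above 3.13 to 3.28 CPM in the other TSA libraries. TSA 1 had 0.915 CPM of Capza1, below 4.44 to 4.56 CPM in the others. TSA 2 had 16.2 CPM of Veph1, a small step above 14.3 to 14.6 CPM in the others. H3K9ac cover near Qrfpr was 0.306 kb in TSA 4 and 0.309 kb in Vehicle 2, and 0 in all other lists, so each rests on 1 peak.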

How the results depend on the processing

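Over 128 alternative fits of the RNA changes of the 8 genes, 0 reversed sign, 123 moved by less than the spread and 5 moved further. The moved values were those of Sycp1 under DESeq2 (8.36), limma-voom (6.88), an Xist term (8.53) and without TSA 3 (8.48), against a fitted 8.96 that depends on the prior count, and that of Qrfpr without Vehicle 1 and 4 (3.03). With Xist status as a term, all genes called came to 1575 against 4954, chromosome 3 genes besides the 8 to 75 against 248, and listed family genes to 8 against 27. Xist was high in every Vehicle library, so this term leaves TSA 4 alone to be set against Vehicle. Counts from such a fit cannot be compared with counts from 4 TSA libraries, so nothing is read from the drop. Whether Xist status bears on the calls was not tested. Leaving out each library in turn gave 3856 to 5593 called genes, 184 to 282 on chromosome 3 and 20 to 32 in the family lists. Regions of chromosome 3 gained in TSA were 19 with stricter peaks and 5 when all 4 lists had to hold them against none, and those lost were 2 and 1, against 38 and 14. Without 1 list they were 41 to 189 and 16 to 60, where 2 of 3 lists of the shortened group sufficed or 1 list fewer had to lack the peak.

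Differences in H3K9ac cover, for which the adjusted threshold was nearly or wholly out of reach, changed sign in some settings. With stricter peaks that of S100a10 was 0.129 kb and that of Anxa9 −0.0335 kb, with 5 kb windows that of Olfml3 was −0.00775 kb, and with 50 kb windows that of Qrfpr was 0.179 kb. With cover scaled to kb per Mb of all bases covered in the list, Capza1 (−0.0163), Anxa9 (−0.0329) and Olfml3 (−0.00174) were lower in TSA. The causes were not tested. Without 1 list the differences ran from −0.229 to 0.724 kb near Anxa9, −0.157 to 0.337 kb near Olfml3, −0.0772 to 0.0765 kb near Qrfpr and −0.176 to 0.0573 kb near S100a10. The replicate numbers were not taken to pair the samples, though whether they do is not settled here. With replicate number as a block 5342 genes were called in all, 264 on chromosome 3 and 32 in the family lists. TSA 1, 2 and 4 correlated best with the Vehicle library of their own number, and TSA 3 did not. With an Xist term, which sets TSA 4 alone against Vehicle, S100a10 fell further than Capza1 (−2.53 and −2.39). Counts of 2 to 9 in Vehicle limit the precision of Qrfpr, whose log2 change ran from 1.47 to 2.24 with each library left out.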

Other observations

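Gm4349, a transcribed pseudogene at chr3:95427349-95431085, 112169 bases from Anxa9, was named after its values were seen. It had 6, 36, 31 and 29 counts in TSA 1 to 4, against 0, 0, 0 and 1 in Vehicle 1 to 4. The ratio of summed counts, scaled by library totals, was 96.4, with a 95% counting interval of 16.9 to 3846 that covers counting error only. It is also the gene whose profile came closest to that of Sycp1.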
